A study of Mus musculus with 2 samples.

Results

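The genes of glucose breakdown were described in nucleoplasmic RNA of mouse macrophages, as 39 members named by symbol that cover glycolysis, lactate handling, regulators of both, the pentose phosphate pathway, the TCA cycle and the itaconate enzyme Acod1. All 39 were found among the 55536 mouse genes of the deposited tables. The cells were bone-marrow-derived macrophages of strain C57BL/6J stimulated with lipid A (100 ng/ml, 20 min), the part of bacterial lipopolysaccharide that TLR4 senses. The RNA came from the nucleoplasm, the soluble content of the nucleus, and was sequenced as total RNA after removal of ribosomal RNA. The study held 1 group with 2 libraries, and no unstimulated cells or other cell fractions were analysed here, so the values below are levels and not responses to lipid A. Both libraries carry the same donor identifier and the labels do not say whether they came from separate cultures or animals, so n = 2 refers to libraries and the SD may be technical. The amount of starting RNA was 1 µg for replicate 1 but 500 ng for replicate 2, and the effect of this amount cannot be told apart from that of the replicate. The labels record neither sex nor age.

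Glycolysis splits glucose into pyruvate in the cytosol, with hexokinase, phosphofructokinase and pyruvate kinase as its regulated steps. The pentose phosphate pathway draws glucose 6-phosphate off to make NADPH and ribose, and the TCA cycle oxidises pyruvate carbon in mitochondria. Macrophages activated through TLR4 are known to raise glycolysis over hours, to stabilise the hypoxia factor HIF-1α and to divert the TCA intermediate aconitate to itaconate. The nucleus holds newly made and not yet exported transcripts, so nucleoplasmic levels need not follow those of the cytoplasm.

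The libraries held 18194781 and 18667499 counts over genes, and a gene with no counts could hold up to 3 counts, or 0.165 and 0.161 CPM (counts scaled to library size). Each library was deposited in 2 quantifications, with columns named as by RSEM and as by kallisto, and values are from the former unless the second quantification is named. The listed macrophage markers were detected in 7 of 7 cases with medians of 205 and 135 TPM (a length-normalised share of all transcripts) in replicates 1 and 2. None of the 5 neutrophil, 3 B cell, 3 T cell and 3 erythroid markers reached 1 TPM in both libraries. The nuclear RNA Malat1 stood at 21749 and 30754 TPM. Mitochondrially encoded RNA made up 3.19% and 10.5% of counts in replicates 1 and 2. In bulk RNA, fewer cells with a transcript and less of it per cell cannot be told apart.

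The pyruvate kinase gene Pkm and the hexokinase gene Hk3, the most abundant members, both have transcripts that differ in an exon, and these exons are shown because the splice forms described below rest on them. Pkm uses either of 2 neighbouring exons of 167 bases on the plus strand, and the upstream one makes the M1 enzyme of muscle and brain, the downstream one the M2 enzyme of proliferating and immune cells. The upstream exon lies at chr9:59675029-59675195 and the downstream one at chr9:59675568-59675734 (mm10, GENCODE M21). They were identical at 103 of 167 positions (61.7%), and capitals mark the bases that differ. The Hk3 exon at chr13:55014427-55014546 on the minus strand is used whole, with 120 bases, in the coding transcript Hk3-208, whereas Hk3-204, annotated as a target of nonsense-mediated decay, leaves out its last 56 bases, shown in capitals.
Pkm upstream exon, M1 type: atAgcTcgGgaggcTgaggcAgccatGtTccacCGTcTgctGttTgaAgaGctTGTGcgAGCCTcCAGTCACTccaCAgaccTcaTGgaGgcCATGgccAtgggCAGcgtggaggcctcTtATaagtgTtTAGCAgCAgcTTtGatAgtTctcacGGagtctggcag
Pkm downstream exon, M2 type: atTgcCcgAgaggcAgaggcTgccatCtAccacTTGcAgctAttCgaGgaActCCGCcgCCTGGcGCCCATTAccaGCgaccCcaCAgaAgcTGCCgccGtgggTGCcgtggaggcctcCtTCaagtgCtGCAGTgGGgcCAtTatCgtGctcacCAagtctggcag
Hk3 exon with 2 ends: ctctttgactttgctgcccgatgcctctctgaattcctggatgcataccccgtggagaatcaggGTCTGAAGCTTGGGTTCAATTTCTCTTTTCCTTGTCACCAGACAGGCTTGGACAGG

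Nearly all steps of central carbon metabolism were represented, and 37 of the 39 genes reached 1 TPM in both libraries. Of the 22015 nuclear-encoded protein-coding genes, 44.9% did so. The exceptions were Aldoc, the brain-type aldolase, at 1.11 TPM in replicate 1 and at 0.55 TPM in replicate 2, and Ldhb, the heart-type lactate dehydrogenase, at 0.74 and 0.85 TPM. The median member stood at 19.34 TPM in replicate 1 and at 13.17 TPM in replicate 2, or 16.3 ± 4.36 TPM (SD, n = 2), beside a median of 9.87 TPM for coding genes that reached 1 TPM in both. Together the members held 36474 counts in replicate 1 and 32551 in replicate 2. Their share of the TPM of nuclear-encoded coding genes was 0.346% and 0.345%.

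Hk3, Pkm and the NADPH-producing dehydrogenase Pgd led the list. By mean TPM, 9 members ranked among the top 10% of the 22015 coding genes, namely Hk3, Pkm, Pgd, Gapdh, Sdha, Aldoa, Ldha, Pfkfb3 and Gpi1. Hk3 ranked 276, Pkm 452, Pgd 845 and Gapdh 971. The order of the members was alike in both libraries, with a Spearman rho of 0.948 and a Pearson r of 0.961 for log2 TPM across the 39 genes. These are descriptions across genes, which share their library and are not independent replicates.

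**Figure D1:**
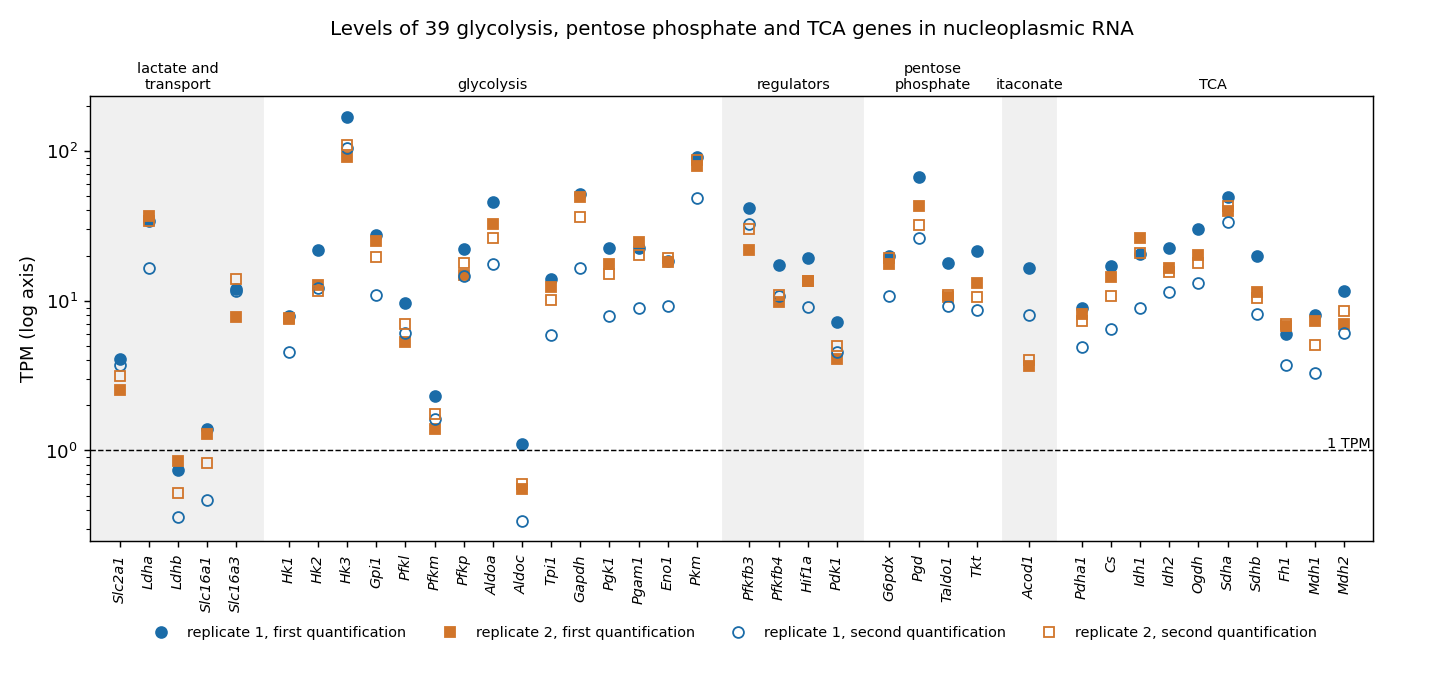
TPM of the 39 genes on a log axis, grouped by pathway, with circles for replicate 1 and squares for replicate 2, filled for the first deposited quantification and open for the second. Hk3 is highest in both libraries and both quantifications, and Aldoc, apart from its filled circle, Ldhb and the open symbols of Slc16a1 lie under the dashed line of 1 TPM.

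At the entry of glycolysis, hexokinase traps glucose in the cell as glucose 6-phosphate. Hk3, the form found mainly in blood cells, stood at 169 TPM in replicate 1 and at 91.2 TPM in replicate 2, from 7040 and 4112 counts. The gene spans chr13:55005985-55021385 on the minus strand. Hk2, the inducible form bound to mitochondria, was measured at 21.75 and 12.68 TPM. Hk1, the widespread form, was measured at 7.91 and 7.59 TPM. Hk3 therefore held 83.4% ± 2.30 (SD, n = 2) of the summed TPM of Hk1, Hk2, Hk3 and Hkdc1, with 85.1% in replicate 1 and 81.8% in replicate 2. Hkdc1 was listed at 0 in both libraries. Over protein-coding transcripts alone, the Hk3 share was 79.8% and 69.7%.

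The gene for glucose transport into the cell among the members, Slc2a1 (GLUT1), was low at 4.09 TPM in replicate 1 and at 2.55 TPM in replicate 2. Slc2a6, a transporter of the same family that is not a member, was listed higher, at 27.69 and 6.4 TPM. Its protein-coding transcripts held only 1.29 and 0.10 TPM, under the 2.58 and 2.10 TPM of Slc2a1. The order of these transporters thus turned on the class of transcript counted. Slc2a3 stood at 1.61 and 1.28 TPM and Slc2a4, the insulin-sensitive form, at 0.10 and 0.02 TPM.

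Phosphofructokinase commits sugar phosphate to glycolysis. Its platelet-type gene Pfkp was measured at 22.04 TPM in replicate 1 and at 14.89 TPM in replicate 2, the liver-type Pfkl at 9.72 and 5.28 TPM, and the muscle-type Pfkm at 2.31 and 1.39 TPM. Pfkp held 66.9% ± 3.09 (SD, n = 2) of the family. Over protein-coding transcripts alone it held 42.9% and Pfkl 37.3%, so its lead over Pfkl narrowed. Most Pfkp signal lay on transcripts annotated as retained introns, as given below. Pfkp exons also share 748 bases with Pitrm1 on the opposite strand, and the part of Pitrm1 reads in the Pfkp values was not tested.

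The middle and lower steps were carried by a leading gene each in aldolase and lactate dehydrogenase. Aldoa, which cleaves fructose bisphosphate, stood at 45.4 TPM in replicate 1 and at 32.42 TPM in replicate 2 and held 97.8% ± 0.45 (SD, n = 2) of aldolase TPM. The isomerases Gpi1 and Tpi1 were measured at 27.38 and 25 TPM and at 13.87 and 12.3 TPM. Gapdh, which makes NADH at the oxidation step, stood at 51.22 and 49.01 TPM. Pgk1, which yields the first ATP, stood at 22.43 and 17.53 TPM, and the mutase Pgam1 at 22.3 and 24.64 TPM. The sperm forms Gapdhs and Pgk2 were listed at 0 in both libraries, but the second quantification listed Gapdhs at 0.94 and 2.71 TPM.

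Enolase differed from these steps, because its leading gene was not the same in both libraries. Eno1 stood at 18.28 and 18.1 TPM, and at 9.20 and 19.3 TPM in the second quantification. Eno2, known as the neuronal form, was listed at 25.14 TPM in replicate 1 and at 9.57 TPM in replicate 2. The Eno1 share of enolase TPM was therefore 38.0% and 60.3%. Over protein-coding transcripts Eno1 led in both, with 52.6% and 68.2%. Eno3, the muscle form, held 9.48% and 5.97% of enolase TPM.

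Pkm was measured at 90.96 TPM in replicate 1 and at 79.15 TPM in replicate 2. The transcript with the downstream M2-type exon, Pkm-201, stood at 51.71 and 50.9 TPM, and the main M1-type transcript, Pkm-202, at 7.59 and 3.72 TPM. The M2-type exon thus held 86.3% and 93.2% of the TPM of transcripts that carry either exon, or 89.8% ± 4.86 (SD, n = 2). By counts the share was 91.6% and in the second quantification 89.9%. The retained-intron transcript Pkm-205, which carries neither exon, held a further 22.62 and 15.01 TPM.

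Lactate dehydrogenase was almost all Ldha, the form that favours lactate, at 33.78 TPM in replicate 1 and at 36.48 TPM in replicate 2, a share of 97.5% ± 0.245 (SD, n = 2). Ldhb rested on 13.85 and 15.17 estimated counts. Of the monocarboxylate transporters that carry lactate, Slc16a3 (MCT4) stood at 12.03 and 7.81 TPM and Slc16a1 (MCT1) at 1.39 and 1.28 TPM. A non-member, Slc16a7 (MCT2), was listed above both at 27.96 and 22.4 TPM, or 69.4% ± 2.52 of the family. It also led over protein-coding transcripts, at 13.64 and 16.40 TPM, and in the second quantification, with 62.2% of the family.

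**Figure D2:**
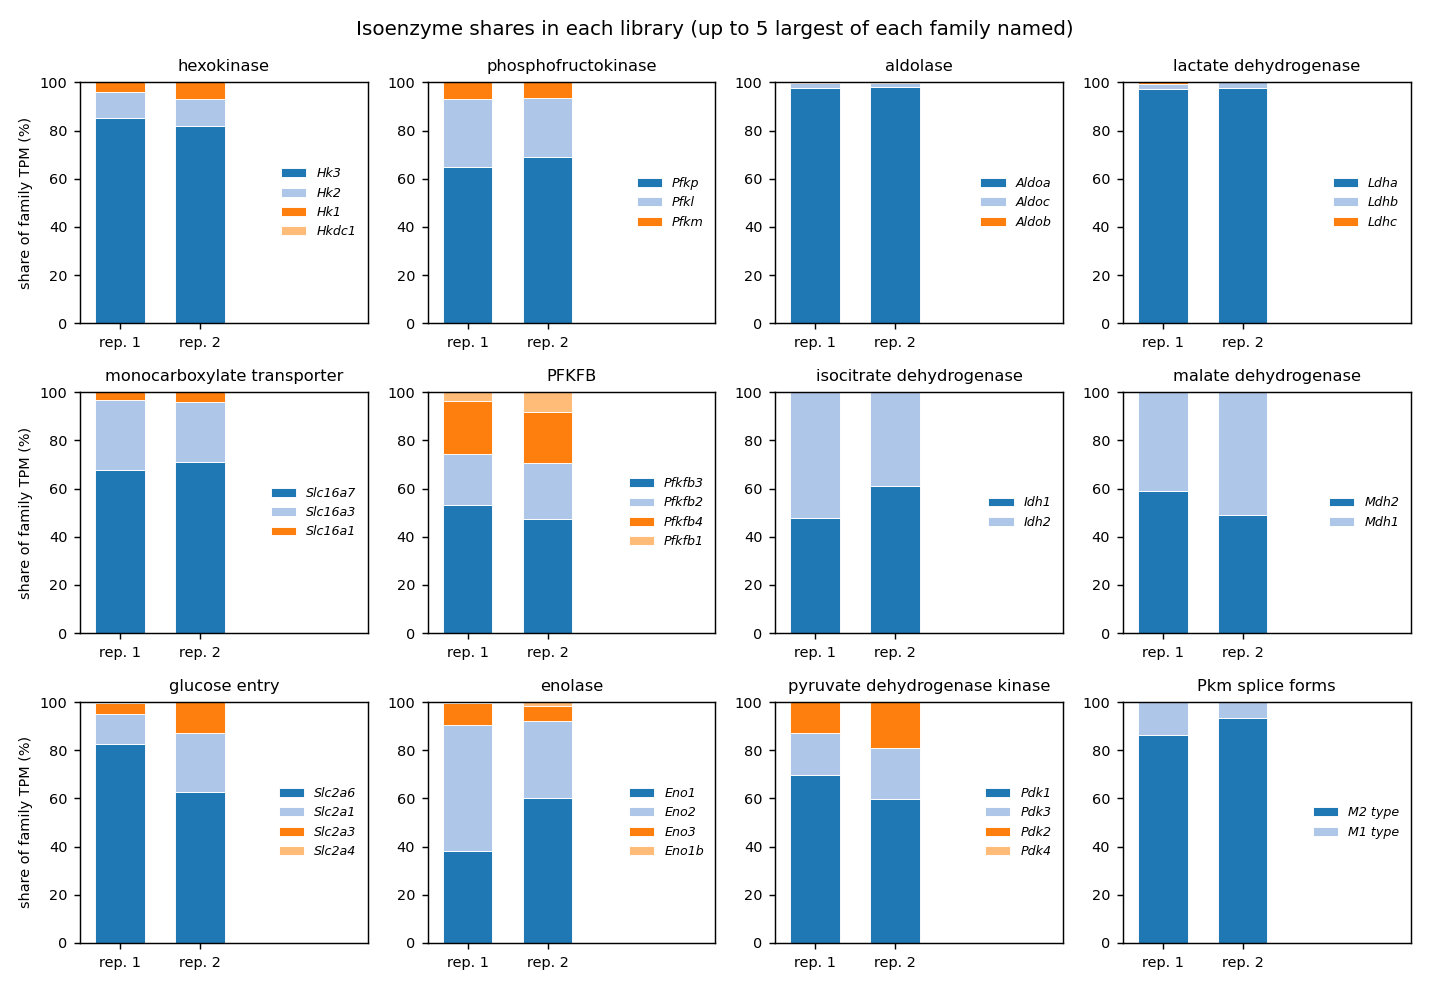
Stacked bars of the share of TPM that each isoenzyme gene held within its family, on a linear axis from 0 to 100%, with replicate 1 on the left and replicate 2 on the right of each panel; the last panel splits Pkm transcripts by M2-type and M1-type exon. Hk3, Aldoa and Ldha hold over 80% of their families in both libraries, whereas the leader changes between the libraries in the isocitrate dehydrogenase, malate dehydrogenase and enolase panels.

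Among the regulators, Pfkfb3, whose product makes the phosphofructokinase activator fructose 2,6-bisphosphate, was highest at 41.68 TPM in replicate 1 and at 21.8 TPM in replicate 2. Pfkfb4 stood at 17.31 and 9.83 TPM and the non-member Pfkfb2 at 16.65 and 10.62 TPM. Pfkfb3 held 50.3% ± 4.07 (SD, n = 2) of this family and Pfkfb1, the liver form, 5.87%. Hif1a, which encodes the oxygen-regulated subunit of HIF-1, stood at 19.34 and 13.61 TPM. Pdk1, the kinase that switches off pyruvate dehydrogenase, stood at 7.19 and 4.07 TPM and held 69.7% and 59.9% of its family. Over protein-coding transcripts its share was 46.7% and 56.3%, still the largest of the family. Pdk4 was listed at 0 in both libraries by the first quantification. A further list of 17 genes held mostly genes of the HIF pathway, with Tigar, Fbp1 and Fbp2 added. Of these 17, 11 reached 1 TPM in both libraries, and levels ran from the growth factor Vegfa at 294 and 182 TPM down to Fbp2 at 0.

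In the pentose phosphate pathway, the enzymes of the oxidative branch make NADPH. Pgd stood at 66.78 TPM in replicate 1 and at 43.02 TPM in replicate 2, above G6pdx, which catalyses the step before it, at 19.91 and 17.58 TPM. The enzymes of the nonoxidative branch, which recycle pentoses to glycolysis, were Tkt at 21.56 and 13.17 TPM and Taldo1 at 17.8 and 10.52 TPM. The 4 genes had a median of 18.1 ± 3.79 TPM (SD, n = 2). Of 7 further genes of the pathway, 5 reached 1 TPM in both libraries, and the 7 had a median of 4.84 TPM. The epimerase Rpe was the highest of them at 14.47 and 11.58 TPM, and the transketolase-like Tktl1 the lowest at 0.09 and 0.08 TPM.

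All 10 TCA cycle and pyruvate entry members reached 1 TPM in both libraries. Their median was 18.4 and 12.9 TPM in replicates 1 and 2. The succinate dehydrogenase subunit Sdha, which carries the flavin, was the highest at 48.88 and 39.53 TPM. Its iron-sulfur partner Sdhb was measured at 19.73 and 11.38 TPM, so the subunits of this complex stood at unequal RNA levels in both libraries. Ogdh, the decarboxylating subunit of the oxoglutarate dehydrogenase complex, stood at 30.05 and 20.26 TPM. Cs, which starts the cycle, stood at 17.12 and 14.4 TPM, Pdha1 at 8.89 and 8.15 TPM, and the fumarase gene Fh1 at 6.01 and 6.74 TPM.

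The cytosolic and mitochondrial forms of isocitrate and malate dehydrogenase had no leader that held across libraries and measures. Idh1, the cytosolic NADP-dependent isocitrate dehydrogenase, stood at 20.63 TPM in replicate 1 and at 26.2 TPM in replicate 2, and Idh2, its mitochondrial counterpart, at 22.42 and 16.58 TPM. The Idh1 share of these genes was 47.9% and 61.2%, so the order changed between the libraries. Over protein-coding transcripts Idh1 led in both, with 65.1% and 72.8%. The step within the cycle is run by a separate NAD-dependent enzyme, whose subunit genes are not members and stood at 35.94 and 28.76 TPM for Idh3b, at 15.83 and 17.18 TPM for Idh3g and at 3.09 and 3.74 TPM for Idh3a. Mdh1 (cytosolic) stood at 8.02 and 7.31 TPM and Mdh2 (mitochondrial) at 11.53 and 6.97 TPM. Over protein-coding transcripts Mdh1 led in both, with 54.0% and 56.1%, and in the second quantification Mdh2 did, with 64.7% and 62.9%.

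The glycolysis median lay above the TCA median in both libraries, by 0.26 in replicate 1 and 0.45 in replicate 2 on the log2(TPM + 0.1) scale. The individual levels overlapped widely, from Aldoc to Hk3 among the 15 glycolysis genes and from Fh1 to Sdha among the 10 TCA genes. Of 25 other TCA and pyruvate genes, 23 reached 1 TPM in both, and the 25 had a median of 7.95 ± 1.10 TPM (SD, n = 2). The highest was Dlst, the succinyltransferase subunit that works with Ogdh, at 69.43 and 49.34 TPM, of which 18.4% lay on protein-coding transcripts. The lowest was the pyruvate carboxylase gene Pcx at 0.13 and 0.03 TPM, which the second quantification listed at 11.3 and 11.2 TPM. Of 82 nuclear-encoded genes of the respiratory chain, 70 reached 1 TPM in both, and the median of the 82 was 6.92 ± 0.962 TPM.

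Acod1, the mitochondrial enzyme that makes itaconate and is known to be induced through TLR4, had the largest ratio of the 39 between the libraries. It stood at 16.63 TPM in replicate 1 and at 3.65 TPM in replicate 2, from 763 and 205 counts over chr14:103046977-103056573 on the plus strand. After scaling of the counts to the libraries, it was lower in replicate 2 with a log2 ratio of -1.83 and an exact 95% interval from counting of -2.07 to -1.61. It shares no 31-base word with any other annotated gene and has a single annotated transcript. Its ratio was between -1.68 and -2.16 in every scaling and quantification tried.

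Acod1 was the only member over 2-fold higher in replicate 1, and 0 of 39 were over 2-fold higher in replicate 2. Of all 15557 genes with enough counts, 3.66% were over 2-fold higher in replicate 1 and 4.36% in replicate 2. With any difference beyond counting error taken instead, 10 members were higher in replicate 2, where 24.5% of all genes were. In the other direction 11 members were higher in replicate 1, where 25.6% of all genes were, so both counts were near the background. The median log2 ratio of the members was -0.02, and that of all genes 0.00. With 1 library each, these ratios describe the libraries and have no replicate check.

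**Figure D3:**
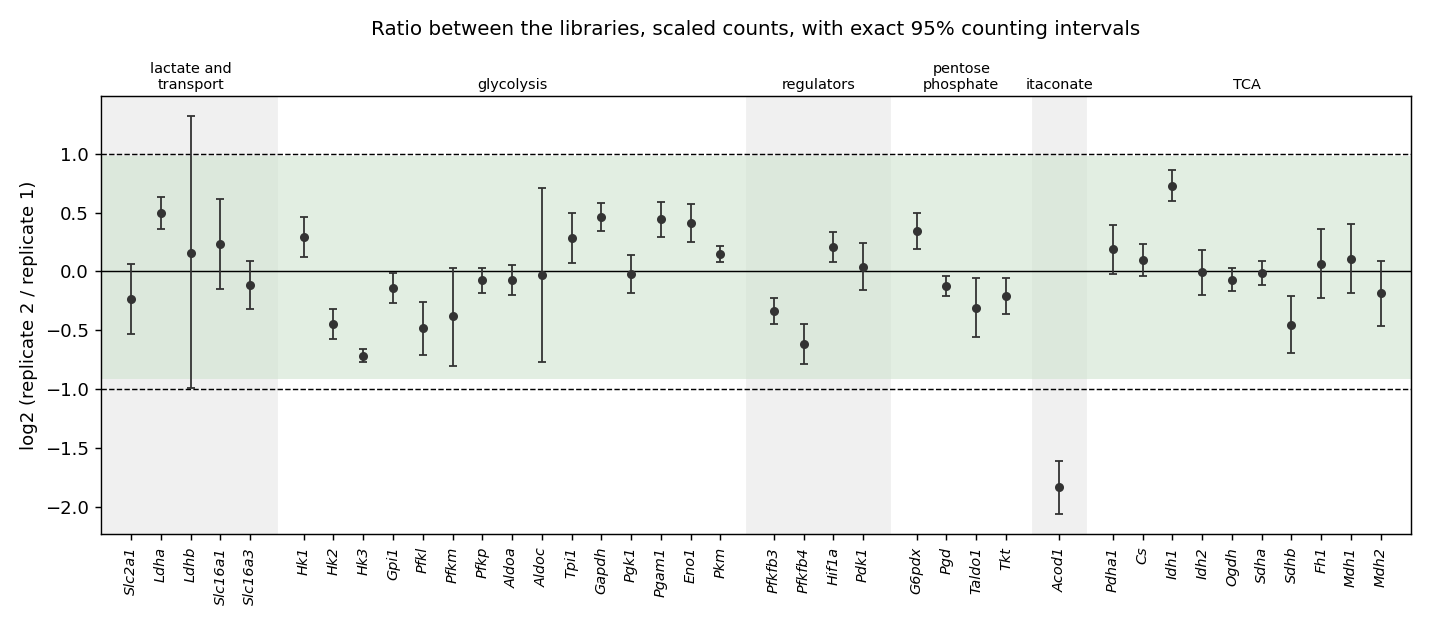
Log2 ratio of replicate 2 over replicate 1 for each gene from scaled counts (points) with exact 95% counting intervals (bars); the green band spans the 5th to 95th percentile of all genes (-0.91 to 0.98) and dashed lines mark 2-fold. Only Acod1 lies outside the band and the dashed lines, and the points from Tpi1 to Pkm, apart from Pgk1, lie above 0.

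Among the glycolysis members, the ratio differed by gene. Of the lower 6 genes from Tpi1 to Pkm, 5 were higher in replicate 2 beyond counting error. Gapdh (chr6:125161715-125166467) had a log2 ratio of 0.46 (0.34 to 0.58), Pgam1 of 0.44, Eno1 of 0.41, Tpi1 of 0.29 and Pkm of 0.15, and the exception was Pgk1 at -0.02. At the enolase step, the non-members Eno2 and Eno3 were lower in replicate 2, with Eno2 at -0.66 (-0.83 to -0.48) and Eno3 at -1.32 (-1.90 to -0.78). Ldha, which follows them, had a ratio of 0.50 (0.37 to 0.63). Upstream, Hk3 was lower in replicate 2 with a ratio of -0.72 (-0.77 to -0.66), as were Pfkl at -0.48, Hk2 at -0.45 and Gpi1 at -0.14, while Hk1 was higher at 0.29. The other upper members, Pfkm at -0.38, Pfkp at -0.08, Aldoa at -0.07 and Aldoc at -0.03, had intervals that held 0. The difference between upper and lower members was thus partial. It was noticed in the ratios and was not tested. Mitochondrially encoded RNA moved the same way as the lower genes, from 3.19% to 10.5% of counts, and its part in the ratios was not tested.

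The sign of these ratios depended on the scale. Nuclear-encoded coding genes summed to 288828 TPM in replicate 1 and to 213296 TPM in replicate 2. On TPM the median ratio of all genes was -0.35 and 34 of the 39 members were lower in replicate 2. Beyond counting error, 27 members were lower there, as were 8076 of all 15557 genes. On that scale the ratio of Gapdh was -0.06, that of Eno1 -0.01 and that of Pkm -0.20, while Idh1 kept the highest one at 0.34. In the second quantification, Gapdh was at 0.56 and Eno1 at 0.39. With library totals for scaling, Tpi1 (0.19) and Pkm (0.05) were no longer beyond counting error. On scaled counts Idh1 (chr1:65158616-65186500, minus strand) had a ratio of 0.73 (0.60 to 0.86), the highest of the members.

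The regulators were split on scaled counts, and 3 of the 4 pentose phosphate genes were lower in replicate 2. Pfkfb4 had a log2 ratio of -0.62 (-0.79 to -0.45) and Pfkfb3 of -0.34, while Hif1a was higher in replicate 2 at 0.21 (0.08 to 0.34). Pdk1 stood at 0.04, with an interval that held 0. The Hif1a ratio did not hold across settings. It was 0.11 (-0.02 to 0.24) with library totals, 0.07 (-0.04 to 0.18) in the second quantification and -0.50 (-0.63 to -0.38) on TPM ratios. Of the pentose phosphate genes, Taldo1 was at -0.31, Tkt at -0.21 and Pgd at -0.12, each lower beyond counting error, and G6pdx at 0.35, higher beyond it. G6pdx stayed higher with library totals (0.25) and in the second quantification (0.19) but was lower on TPM ratios, at -0.18 (-0.33 to -0.02). The intervals on TPM ratios are those of the scaled counts, shifted to the TPM ratio. Of the 10 TCA members, Idh1 was higher and Sdhb, at -0.45, lower beyond counting error, and the other 8 had intervals that held 0.

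Because the RNA was nuclear, the members were also described by the class of their transcripts. Protein-coding transcripts held 66.3% ± 2.06 (SD, n = 2) of the members' TPM, transcripts with a retained intron 19.6% ± 1.79, processed transcripts without an open reading frame 9.73% and targets of nonsense-mediated decay 4.42%. By mean TPM over the libraries, the leading transcript was protein-coding in 36 of 39 genes, and in 33 in the second quantification. Both quantifications named the same leader in 31. Among the 27 members that had such a retained-intron model and a mean level of at least 1 TPM, that class held a median of 20.4% of the gene in replicate 1 and 17.8% in replicate 2. Over all 6420 protein-coding genes that met the same conditions the median was 32.2% ± 0.615 (SD, n = 2). A transcript of this class is a gene model in the annotation, and reads from unspliced precursor RNA cannot be told apart from it in these tables.

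The share on retained introns ranged widely within pathways. Pfkp was the highest, with 77.6% in replicate 1 and 76.9% in replicate 2, and its leading transcript, Pfkp-212, was of this class at 6.38 and 5.06 TPM. Gpi1 followed with 70.5% and 37.1%, which differed more between the libraries. Pfkl stood at 48.7% and 49.1%, Sdha at 41.8% and 47.4%, Idh2 at 45.9% and 39.4% and Tkt at 40.2% and 40.9%. Low shares were found for Pgk1, at 4.46% and 6.67%, Pgam1, at 3.95% and 8.16%, and Ldha, at 8.29% and 10.3%. The more abundant Pkm, at 25.5% and 19.0%, and Gapdh, at 21.1% and 20.1%, lay near the median of the members. No retained-intron transcript alone held over 50% of its gene on average. The second quantification put Pfkp at 56.0% on average over the libraries, and Taldo1 at 39.1%, where the first had 7.42% and 13.4% for Taldo1. It put Pgk1 at 23.3% in replicate 2 and Eno1 at 35.8%.

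**Figure D4:**
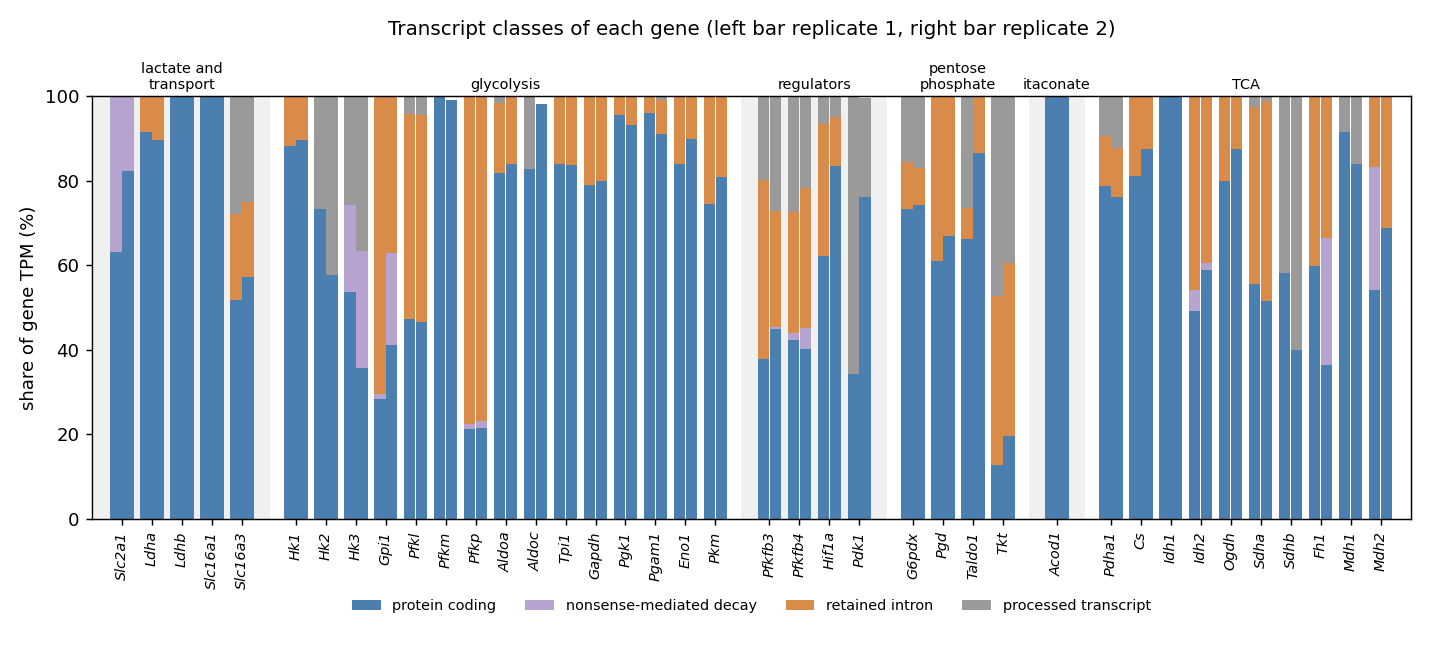
Stacked bars that split each gene's TPM by class of annotated transcript, on a linear axis from 0 to 100%, with replicate 1 as the left and replicate 2 as the right bar of each pair. The retained-intron part is largest in Pfkp and smallest among glycolytic genes with such transcripts in Aldoc, Pgk1 and Pgam1, and Tkt has the smallest protein-coding part.

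Of the 39 genes, 3 were led by a transcript that is not annotated as protein-coding, namely Pfkp, Gpi1 and Tkt. Tkt led with Tkt-209, a processed transcript, at 9.6 and 5.2 TPM, and only 12.7% of Tkt in replicate 1 and 19.6% in replicate 2 lay on protein-coding transcripts. For Hk3, the coding transcript Hk3-208 stood at 58.3 TPM in replicate 1 and at 21.34 TPM in replicate 2. The decay target Hk3-204, which lacks the 56 bases printed in capitals above, stood at 34.8 and 25.39 TPM, and the short processed transcript Hk3-205 at 36.77 and 30.65 TPM. The protein-coding share of Hk3 thus was 53.7% and 35.6%. In the second quantification the shares of Hk3-208 and Hk3-204 were 25.2% and 9.31% in replicate 1 and 19.2% and 15.4% in replicate 2. Hif1a led with Hif1a-201, at 7.48 and 4.74 TPM, followed in replicate 1 by the retained-intron transcript Hif1a-204, at 6.03 and 1.56 TPM, and in replicate 2 by the coding Hif1a-202, at 2.07 and 4.67 TPM.

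Copies of glycolytic genes in the genome limit some of these values. Of the members, 17 shared at least 5% of their 31-base words with transcripts of other genes, 8 shared at least 20% and 9 shared none. Pgk1 shared 54.7%, Pgam1 37.1%, Pkm 34.7%, Ldhb 33.0%, Eno1 28.5% and Gapdh 28.1%, the last with 194 other genes. The genes that share at least 50 words with Gapdh held 1733 counts in replicate 1 and 1536 in replicate 2. Gapdh itself held fewer, at 1001 and 1325. Of those genes, the pseudogene Gm7336 shares the most Gapdh words (26.5%) and held 32.7 and 17.6 counts. For Ldha such genes held 796 and 668 counts, beside 782 and 1061 of Ldha itself. Among them, Gm5452 shares the most Ldha words (7.77%) and held 1 and 0 counts. Most of these counts thus lay on genes that share fewer words. How many came from shared sequence was not tested, so the level of Gapdh and its ratio between the libraries are uncertain. Exons of 15 members also overlap another gene, and whether the counting used strand is not stated in the labels or headers. Gm49759 shares 767 exon bases with Pkm on the same strand and held 1367 and 1440 counts, and Ikbkg shares 418 bases with G6pdx on the opposite strand. Pitrm1 shares 748 bases with Pfkp on the opposite strand and held 694 and 677 counts. The level, family share and retained-intron share of Pfkp are therefore uncertain to that extent. Hk3, Idh1 and Acod1 shared 0.105% or less of their words.

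Promoters of the members were searched for the core of the HIF binding site, because many glycolytic genes are known HIF targets. In the 250 bases before each RefSeq start (GRCm38.p6), ACGTG was found on either strand in 17 of 39 members (43.6%). It was found in 20.2% of the 16522 coding genes with a promoter sequence. Among the 7930 of these with at least 1 TPM in both libraries, it was found in 25.9%. Coding genes without a RefSeq promoter sequence were left out, so 7930 is below the 9889 that reached 1 TPM in both. The variant GCGTG was found in 69.2%, 37.8% and 50.9%. The members had 1.51 annotated starts per gene, against 1.28 for the coding genes at 1 TPM or more, and a median GC content of 59.6% against 60%. Windows of 25 bases are shown for the hexokinases and for the lactate and transport genes that held ACGTG, with the core in capitals (CACGT is ACGTG read on the other strand). ACGTG is also contained in the E-box CACGTG, as in the Slc16a1 window. A match describes letters only, and HIF binding was not measured.
Hk2 (chr6:82774492-82774516, minus strand): tgagcacatcCACGTcactgtccgg
Hk3 (chr13:55021527-55021551, minus strand): tacattttgaCACGTtgcctagttc
Slc2a1 (chr4:119108699-119108723, plus strand): cccgccccggACGTGctccccaggc
Ldha (chr7:46845760-46845784, plus strand): tgggttcccgCACGTccgctgggct
Slc16a1 (chr3:104638455-104638479, plus strand): gcgccgggtcACGTGgcgggaaggg
Slc16a3 (chr11:120949030-120949054, plus strand): ggcagcggtgACGTGcgcgggggac

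The levels on the second quantification were lower in replicate 1, by a median log2 difference of -0.96 over 11756 genes, and nearly equal in replicate 2, at -0.03. The order of the members was alike in both quantifications, with a Spearman rho of 0.922 in replicate 1 and 0.975 in replicate 2, as a description across genes. After that shift was removed, 0 of 36 members differed over 2-fold between the quantifications, where 10.3% of all genes in replicate 1 and 9.91% in replicate 2 did. On the second quantification's TPM, 4 of the 39 members were lower in replicate 2, where 34 were on the first. Coding genes at 1 TPM or more also had a higher median there in replicate 2, at 8.94 TPM against 6.11 in replicate 1. TPM differences between the libraries therefore changed direction with the quantification, while the order of the genes within a library was alike.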

How the data were processed

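RNA of 1 group of macrophages was measured in 2 libraries. The authors deposited, per library, gene and transcript tables with expected counts, FPKM and TPM (also as posterior means), and a transcript table with estimated counts and TPM, per the file headers, whose column names are those of RSEM and kallisto. The notes name mm10 and GENCODE M21. Versions, aligner settings, filters and the use of strand: not given in the sources used here. Entries that name no mouse gene (0.823% of counts in replicate 1, 0.207% in replicate 2) stayed out of all totals.

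The members and lists were chosen with earlier results of these data known. All 39 members are named. Of the other lists, the isoenzymes of a member's step and the highest and lowest gene are named. Aldoa stands on 2 identifiers, and the one that overlaps the RefSeq gene was used. With 1 group there is no test between groups, so values are given per library or as mean and SD. Medians of gene lists were taken in each library and then averaged.

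After rounding to whole numbers, expected counts were scaled with edgeR 4.0.16 (TMM) in R 4.3.3. The log2 ratio of the libraries used a prior count of 0.5 and genes whose mean scaled count was at least 10, with exact binomial 95% intervals. These cover counting error only, since reads lack molecular identifiers and are not independent. A gene was over 2-fold higher where the ratio passed 2-fold and the interval left out 0. This step was tested on simulated data. Logs of TPM used a pseudocount of 0.1. Isoenzyme shares are shares of gene TPM. Alternatives were library totals or DESeq2 1.42.0 size factors for scaling, ratios of TPM, other minimums and pseudocounts, the second quantification and leaving out each library. For ratios of TPM, the interval of the scaled counts was shifted to the TPM ratio and kept its width. Shares over protein-coding transcripts were added after seeing the data. Python 3.11.15, pandas 2.3.3 and scipy 1.17.1 were used.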

Additional observations from a re-analysis of the deposited data

How the results depend on the processing

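The counts of members over 2-fold apart and the order of the glycolysis and TCA medians held under every alternative tried. Members at 1 TPM in both libraries numbered 36 in the second quantification and 39 by posterior-mean TPM, and 32 members reached 5 TPM. No share over all coding genes was taken at these settings, so detection was compared with all genes only as reported. Posterior-mean TPM also placed Pcx, the lowest of the other TCA and pyruvate genes, over 1 TPM in both libraries. The 39 members counted there therefore say little about detection. The median TPM of the members was 10.3 in the second quantification and 64.4 with TPM rescaled over nuclear-encoded coding genes, where it was 16.3 as reported. It ranged from 13.2 to 19.3 with either library left out. The glycolysis median exceeded the TCA median by 0.55 (log2) in the second quantification, and by 0.26 to 0.45 with a library left out. The median log2 ratio of the members was -0.48 on TPM ratios, where all genes had -0.35. The median retained-intron share of the members was 11.98% by counts and 27.4% in the second quantification, and 17.8% to 20.4% with a library left out. By counts and in the second quantification no share over all genes was taken, so the comparison with all genes was not repeated there. The cause of these shifts was not tested. With 2 libraries, leaving out either moves a mean by less than 1 SD by construction.

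Members higher and lower in replicate 2 beyond counting error numbered 10 and 11 as reported, beside 3806 and 3980 of all 15557 genes. With DESeq2 size factors they numbered 10 and 14, beside 3491 and 4364 of 15557 genes. With library totals they numbered 7 and 19, beside 2831 and 5133 of 15556 genes. On TPM ratios they numbered 1 and 27, beside 1162 and 8076 of 15557 genes. In the second quantification they numbered 9 and 16, beside 6444 and 6560 of 24470 genes. Of 26 isoenzyme shares recomputed with both libraries, 13 moved by more than 1 SD. The gene that led as reported fell under 50% in at least 1 setting for the phosphofructokinase, PFKFB, isocitrate dehydrogenase and malate dehydrogenase families. The glucose transporter, enolase and pyruvate dehydrogenase kinase families were not part of these counts. No paired analysis was possible because the study has 1 group. Depth limits Ldhb and Aldoc most, with under 40 counts in each library.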
